A study of Homo sapiens with 6 samples.

Results

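Interferon-stimulated antiviral genes are the genes that cells switch on when interferon, or a sensor of foreign nucleic acid, signals to them. A list of 45 such genes, chosen with earlier results of these data known, was followed in T24 cells. The genes were taken by symbol, and each symbol matched 1 row among the 63241 genes of the deposited table. The comparison was between T24 cells given small interfering RNA against USP43 (siUSP43, labelled as a USP43 knockdown, 3 libraries) and T24 cells given control small interfering RNA (siNC, labelled wild type, 3 libraries). T24 is an established human bladder cancer line and USP43 encodes a deubiquitinating enzyme that the series relates to cholesterol homeostasis, E2F1 and gemcitabine resistance. The labels give neither the duplex sequences nor the time after transfection, do not say whether the 3 siUSP43 libraries share 1 duplex or whether libraries are separate cultures, and name no interferon or virus treatment. P-values therefore measure the spread between these libraries, which may be technical.

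As background, interferons bind receptors that carry the kinases JAK1 and TYK2, which phosphorylate STAT proteins. STAT2 acts with IRF9 in a complex that binds the interferon-stimulated response element, a repeat of GAAA, in the promoters of antiviral genes, while the gamma-activated site is a second element that STAT proteins bind. Many of the induced proteins bind viral RNA, degrade RNA, block membrane fusion, or tag proteins with ISG15, and several members (STAT2, IRF1, IRF7, IRF9) are themselves the factors that drive the others. Cells that are not infected keep a low level of many of these genes.

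Promoter sequence shows how far the members share this element. The RefSeq promoter table (GRCh38.p14, 250 bases before to 50 bases after each start) held 34 of the 45 members. The core of the response element (GAAA, any 2 bases, GAAA), searched on both strands, lay in the window of 25 of these 34 (73.5%), against 4.38% of the 27305 genes in that table. The stretches below, of which capitals mark the match, come from members that fell, from 1 that did not pass and from 2 that rose in siUSP43 (results follow), to show that the element is found in each kind. IRF1 and IFI35 had no match to that core and are shown with the gamma-activated site TTCNNNGAA, which 11 of 34 members (32.4%) and 9.38% of all genes held. A window may hold both words, and they can overlap.
IFIT1 (chr10:89392510-89392539, plus strand gene): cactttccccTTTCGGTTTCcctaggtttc
ISG15 (chr1:1013380-1013409, plus strand gene): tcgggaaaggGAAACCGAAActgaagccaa
IFITM1 (chr11:314024-314053, plus strand gene): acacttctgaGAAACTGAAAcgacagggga
OAS3 (chr12:112938452-112938481, plus strand gene): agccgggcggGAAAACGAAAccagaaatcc
IRF1 (chr5:132490878-132490907, minus strand gene): acagcctgatTTCCCCGAAatgacggcacg
IFI35 (chr17:43006752-43006781, plus strand gene): aggcagggatTTCACGGAAatgaaagtgga
BST2 (chr19:17405735-17405764, minus strand gene): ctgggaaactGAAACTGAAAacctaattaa
GBP3 (chr1:89022845-89022874, minus strand gene): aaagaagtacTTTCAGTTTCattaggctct
DTX3L (chr3:122564322-122564351, plus strand gene): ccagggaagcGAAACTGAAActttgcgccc
Each stretch is written along its gene's own strand, and in IFIT1 and GBP3 the match lies on the opposite strand. A match describes letters in this window only, and a window without one says nothing about binding.

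Library totals ran from 21430574 to 25577200 gene counts, and mitochondrial genes took 5.41 to 5.81% of them. USP43 itself had 1.02, 0.67 and 0.80 FPKM (fragment counts scaled to exon length and library total) in the siUSP43 libraries, against 2.36, 2.09 and 2.08 in the siNC libraries, a log2 fold change of -1.40 (SE 0.14, edgeR adjusted p = 5.63e-06), and an exact two-sided permutation test of the FPKM values gave 0.1, the smallest p that 3 against 3 libraries allow. Of 15 epithelial and urothelial markers, the keratin genes KRT7, KRT8, KRT18 and KRT19 and the urothelial factor gene PPARG averaged 1 FPKM or more, while KRT5 and KRT20 had 0 counts in all 6 libraries, CDH1 was at 0.02 FPKM or less, KRT13 at 0.04 or less and the uroplakins at 0.16 or less. EPCAM had 1.18 to 1.30 FPKM in siUSP43 and 0.48 to 0.73 in siNC, and GATA3, another urothelial factor gene, had 0.21 to 0.30 in siUSP43 and 0.40 to 0.46 in siNC. Leukocyte markers summed over 12 genes came to 0.56 to 0.68 FPKM in siUSP43 and 0.98 to 1.37 in siNC. CD3E, CD3D, MS4A1, FCGR3A and CLEC4C were at 0 counts throughout and PTPRC was at 0.01 FPKM or less, and CD14, the highest of the list, had 0.41 to 0.56 FPKM in siUSP43 and 0.89 to 1.06 in siNC. Fibroblast and endothelial markers summed to 1.32 to 1.35 FPKM in siUSP43 and 1.30 to 1.72 in siNC.

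Knockdown cells had less RNA from most of the antiviral genes that could be tested. Of the 38 members with a mean of at least 1 FPKM, 23 fell, 3 rose and 12 did not pass (edgeR quasi-likelihood test, Benjamini-Hochberg adjusted p under 0.05 over 11417 genes). The share that fell was 60.5%, beside 28.1% of all tested genes, and the share that rose was 7.89%, beside 28.0%, with 56.1% of all tested genes passing in either direction. The median log2 fold change (siUSP43 over siNC) was -0.43 for the members and -0.01 for all tested genes. At a log2 fold change of -0.5 or lower, 16 members passed, beside 10.3% of tested genes, and no member rose by 0.5 or more, beside 8.62%. The remaining 7 members lay below the filter. OAS2 passed it only through the siNC libraries, since its siUSP43 mean was under 1 FPKM. In RNA from whole cultures, fewer responding cells and less RNA per cell cannot be told apart.

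The decrease was alike in the 3 knockdown libraries. The median member stood at -0.43, -0.40 and -0.38 on the log2 scale in siUSP43 libraries 1, 2 and 3, relative to the siNC mean, while the siNC libraries stood at 0.02, 0.00 and -0.01. All 23 members that fell had every siUSP43 value below every siNC value, as did SP100, which did not pass. Groups did not overlap in that direction for 29.6% of tested genes, and in the other direction for 32.5%, where 3 members were found. The coefficient of variation within a group had a median of 6.02% over the members in siUSP43 and 4.22% in siNC, close to the 6.67% and 4.65% of all tested genes. It was highest for ISG15 in siUSP43 (14.7%) and for IFI27 in siNC (17.9%).

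**Figure D1:**
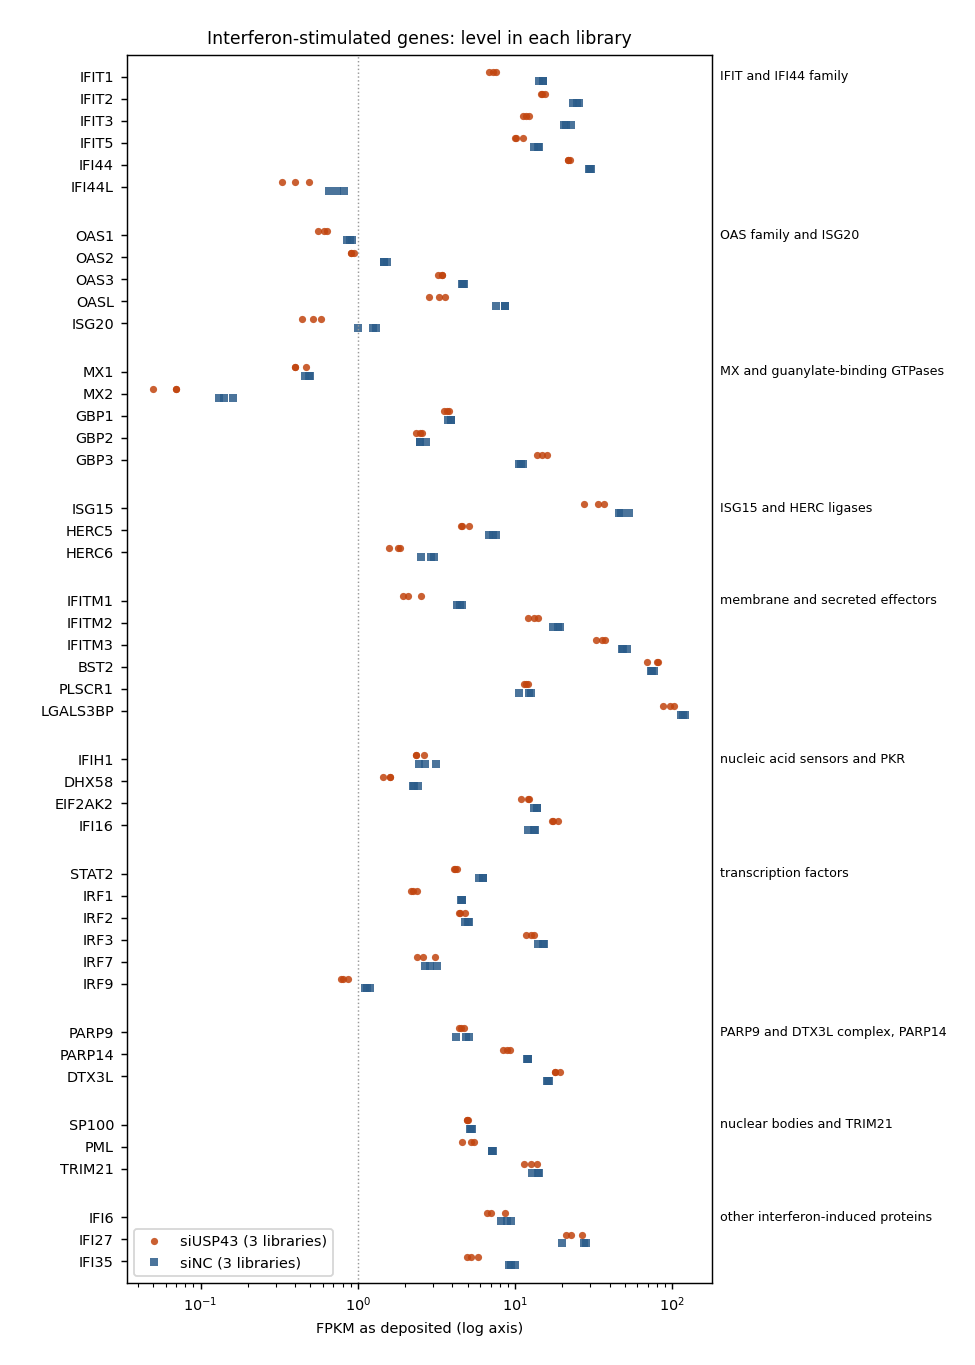
Level of 44 members (XAF1, at 0.07 FPKM or less, is left out) in each library as FPKM on a log axis, with 3 siUSP43 libraries (orange circles, upper row of each gene) and 3 siNC libraries (blue squares, lower row), and a dotted line at 1 FPKM, the filter on the mean. Most genes sit further left in siUSP43, from 7.23 against 14.9 FPKM on average for IFIT1 to 95.7 against 117.6 for LGALS3BP, while GBP3, IFI16 and DTX3L sit further right.

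The IFIT proteins bind foreign RNA and hold back its translation, and IFI44 is an interferon-induced protein of less certain function. All 5 tested genes of this group fell. IFIT1 (ENSG00000185745, GRCh38 chromosome 10, 89392546 to 89406487) had 6.83, 7.27 and 7.58 FPKM in siUSP43, against 15.14, 15.18 and 14.22 in siNC. The groups were far apart relative to the spread within them, with a log2 fold change of -1.06 (SE 0.06, edgeR adjusted p = 7.69e-08). IFIT3, which binds IFIT1, had 11.85, 12.32 and 11.27 FPKM in siUSP43 and 22.86, 20.43 and 21.26 in siNC (log2 fold change -0.88, SE 0.06, edgeR adjusted p = 2.13e-07). IFIT2 had 14.95, 14.72 and 15.65 FPKM in siUSP43 and 25.43, 24.89 and 23.40 in siNC (-0.72, SE 0.05, edgeR adjusted p = 3.74e-07). IFIT5 and IFI44 changed less, by -0.42 and -0.46 on the log2 scale, with edgeR adjusted p = 1.41e-04 and 1.46e-05.

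The neighbourhood of the IFIT genes may matter for reading these values. IFIT1, IFIT2 and IFIT3 lie on the plus strand within the span that the deposited annotation gives LIPA on the minus strand (chromosome 10, 89213569 to 89414557), and IFIT5 starts just beyond it, at 89414568. LIPA, which encodes lysosomal acid lipase, had 16.16, 15.26 and 17.64 FPKM in siUSP43 and 28.13, 28.02 and 26.97 in siNC, a log2 fold change of -0.78 (SE 0.06, edgeR adjusted p = 4.38e-07). Strand use in counting is not given in the sources used here, so reads of LIPA and of these 3 IFIT genes may not have been told apart. The overlap is one of gene spans, and whether counted exons overlap was not examined. IFIT5 and IFI44, which overlap no other gene with a mean of 10 counts or more, fell as well. Of the 45 members, 12 overlap such a gene, among them also ISG15, IFITM3, IRF9 and PML, each with an unnamed gene.

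Oligoadenylate synthetases make a second messenger that sets off the breakdown of RNA, while OASL, which lacks that activity, binds RNA sensing proteins. All 3 tested genes of the family fell. OASL (ENSG00000135114, chromosome 12, 121017763 to 121039246) had the lowest log2 fold change of all tested members, -1.37 (SE 0.09, edgeR adjusted p = 2.26e-07), with 3.29, 3.60 and 2.85 FPKM in siUSP43 against 8.62, 7.55 and 8.67 in siNC. OAS2 had 0.91, 0.95 and 0.90 FPKM in siUSP43 and 1.54, 1.46 and 1.46 in siNC, a log2 fold change of -0.71 (SE 0.08, edgeR adjusted p = 1.15e-05). OAS3, its neighbour on chromosome 12, changed by -0.48 (SE 0.05, edgeR adjusted p = 8.47e-06). OAS1, the third gene of that cluster, was below the filter at 0.61, 0.64 and 0.56 FPKM in siUSP43 and 0.89, 0.92 and 0.86 in siNC, although these values rest on 210 to 350 counts per library.

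The GTPases of the list did not move together. MX1 and MX2, dynamin-like proteins that trap viral nucleocapsids, were both below the filter, and GBP1, GBP2 and GBP3 belong to the guanylate-binding proteins, which coat intracellular pathogens and respond strongly to interferon gamma. GBP3 (ENSG00000117226, chromosome 1, 89006679 to 89022894) rose, with 14.79, 13.73 and 15.93 FPKM in siUSP43 against 10.87, 11.22 and 10.63 in siNC (log2 fold change 0.43, SE 0.06, edgeR adjusted p = 1.07e-04). Its neighbours on the same strand did not pass. GBP1 averaged 3.68 ± 0.115 FPKM in siUSP43 and 3.87 ± 0.11 in siNC (SD, n = 3 each), with a 95% interval of the log2 fold change from -0.22 to 0.05. For GBP2 the interval ran from -0.23 to 0.08. The GBP genes are close in sequence, so reads may have been divided between them.

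ISG15 is a ubiquitin-like protein that UBA7 activates, UBE2L6 carries and HERC5 attaches to newly made proteins, and USP18 removes it again. The 3 members of this group all fell. ISG15 (ENSG00000187608, chromosome 1, 1001138 to 1014540) had 33.71, 37.03 and 27.55 FPKM in siUSP43 and 45.96, 47.34 and 52.94 in siNC, a log2 fold change of -0.59 (SE 0.10, edgeR adjusted p = 3.47e-04). The ligase gene HERC5 had 4.62, 4.56 and 5.09 FPKM in siUSP43 and 7.60, 7.25 and 6.89 in siNC (-0.62, SE 0.07, edgeR adjusted p = 1.12e-05). HERC6, its neighbour on chromosome 4, had 1.80, 1.86 and 1.58 FPKM in siUSP43 and 2.94, 2.52 and 3.07 in siNC (-0.72, SE 0.10, edgeR adjusted p = 8.71e-05). Outside the list, the activating enzyme gene UBA7 fell to 2.33, 2.63 and 2.36 FPKM in siUSP43, against 4.88, 4.95 and 5.40 in siNC, a log2 fold change of -1.08 (SE 0.08, edgeR adjusted p = 6.63e-07). The other steps did not follow: UBE2L6, named here after its values were seen, had a log2 fold change of 0.05 and USP18 one of 0.28 (SE 0.13, edgeR adjusted p = 0.072), and neither passed.

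At the membrane, IFITM proteins block the fusion of viral envelopes, and all 3 fell. IFITM1 (ENSG00000185885, chromosome 11, 310041 to 315272) had 1.93, 2.52 and 2.08 FPKM in siUSP43 against 4.47, 4.28 and 4.59 in siNC (log2 fold change -1.05, SE 0.13, edgeR adjusted p = 2.79e-05). The more abundant IFITM3 had 35.58, 37.29 and 32.89 FPKM in siUSP43 and 48.02, 48.62 and 51.44 in siNC (-0.50, SE 0.06, edgeR adjusted p = 1.56e-05). IFITM2 had 13.28, 12.16 and 14.01 FPKM in siUSP43 and 17.58, 18.73 and 19.24 in siNC (-0.51, SE 0.07, edgeR adjusted p = 8.03e-05). These are close copies of one another, and how reads shared between them were counted is not given in the sources used here. LGALS3BP, a secreted glycoprotein with the highest level of all members, changed by -0.31 (SE 0.06, edgeR adjusted p = 6.68e-04).

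BST2 and PLSCR1, the other 2 genes of the membrane group, did not pass. BST2, or tetherin, which holds budding virus at the cell surface, had 80.25, 81.24 and 69.58 FPKM in siUSP43 and 76.29, 73.87 and 75.09 in siNC, so the groups overlapped. Its log2 fold change was 0.02 with a 95% interval from -0.12 to 0.15, and its promoter window carries the response element core as those of IFIT1 and IFITM1 do. PLSCR1, a phospholipid scramblase, had an interval from -0.17 to 0.12.

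Among the nucleic acid sensors the directions were mixed. DHX58, which encodes LGP2, a helper of viral RNA sensing, had 1.61, 1.61 and 1.45 FPKM in siUSP43 and 2.23, 2.43 and 2.28 in siNC (log2 fold change -0.59, SE 0.10, edgeR adjusted p = 4.13e-04). EIF2AK2, the gene of the double-stranded RNA kinase PKR, fell by less, with a log2 fold change of -0.22 (SE 0.05, edgeR adjusted p = 0.00261), and overlaps GPATCH11 on the other strand. IFIH1, the gene of the RNA sensor MDA5, did not pass (-0.18, interval -0.40 to 0.04). IFI16, a nuclear DNA sensor (ENSG00000163565, chromosome 1, 158999968 to 159055155), rose, with 17.29, 17.35 and 18.71 FPKM in siUSP43 against 13.49, 13.23 and 12.18 in siNC (0.44, SE 0.05, edgeR adjusted p = 3.50e-05).

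Of the transcription factors, IRF1 changed most. IRF1 (ENSG00000125347, chromosome 5, 132440440 to 132508719), an activator that also acts without new interferon signalling, had 2.23, 2.37 and 2.18 FPKM in siUSP43 and 4.59, 4.53 and 4.61 in siNC, a log2 fold change of -1.03 (SE 0.06, edgeR adjusted p = 8.49e-08). IRF1-AS1 overlaps it on the other strand, with a mean of at least 10 counts. STAT2, a factor of the interferon alpha, beta and lambda response, had 4.16, 4.09 and 4.25 FPKM in siUSP43 and 6.28, 5.95 and 6.27 in siNC (-0.58, SE 0.05, edgeR adjusted p = 3.84e-06).

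The other factors changed less or did not pass. IRF3, which responds to nucleic acid sensors before interferon is made, had 13.29, 12.75 and 11.71 FPKM in siUSP43 and 14.11, 15.00 and 15.33 in siNC (log2 fold change -0.25, SE 0.06, edgeR adjusted p = 0.005). IRF3 overlaps BCL2L12 on the other strand. IRF2, mostly a repressor that competes with IRF1, had 4.39, 4.49 and 4.82 FPKM in siUSP43 and 5.05, 5.12 and 4.78 in siNC and did not pass (edgeR adjusted p = 0.0709), although it did without siUSP43 library 3 (-0.18). IRF7, which amplifies the response, had 2.38, 3.10 and 2.61 FPKM in siUSP43 and 2.67, 2.90 and 3.19 in siNC, overlapping groups that did not pass (edgeR adjusted p = 0.38). IRF9, the partner of STAT2, was below the filter, at 0.78, 0.87 and 0.81 FPKM in siUSP43 and 1.19, 1.11 and 1.15 in siNC, with no overlap.

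PARP9 and DTX3L form a complex that modifies chromatin, and their genes lie head to head on chromosome 3 with overlapping ends. DTX3L rose slightly, with an average of 18.5 ± 0.674 FPKM in siUSP43 and 16.2 ± 0.202 in siNC (SD, n = 3 each, log2 fold change 0.17, SE 0.05, edgeR adjusted p = 0.00748). PARP9 did not pass, with an interval from -0.23 to 0.09. PARP14, further along the same chromosome, fell, with 8.88 ± 0.485 FPKM in siUSP43 and 12.0 ± 0.0681 in siNC (SD, n = 3 each, -0.45, SE 0.05, edgeR adjusted p = 1.49e-05).

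PML builds the nuclear bodies that bear its name, in which SP100 also resides, and TRIM21 binds antibody-coated virus. PML had 5.46, 5.26 and 4.61 FPKM in siUSP43 and 7.14, 7.22 and 7.20 in siNC, a log2 fold change of -0.51 (SE 0.06, edgeR adjusted p = 2.93e-05). SP100 and TRIM21 did not pass, at -0.10 and -0.13 (edgeR adjusted p = 0.0942 and 0.187). IFI35, which pairs with NMI, had 5.22, 5.86 and 4.97 FPKM in siUSP43 and 9.42, 9.13 and 9.99 in siNC (-0.85, SE 0.09, edgeR adjusted p = 7.30e-06). IFI6 and IFI27, small membrane proteins of the endoplasmic reticulum and mitochondria, did not pass, at -0.26 and -0.11 (edgeR adjusted p = 0.0902 and 0.423), though IFI6 did without siUSP43 library 2 (-0.38) and IFI27 without siNC library 3 (-0.25).

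**Figure D2:**
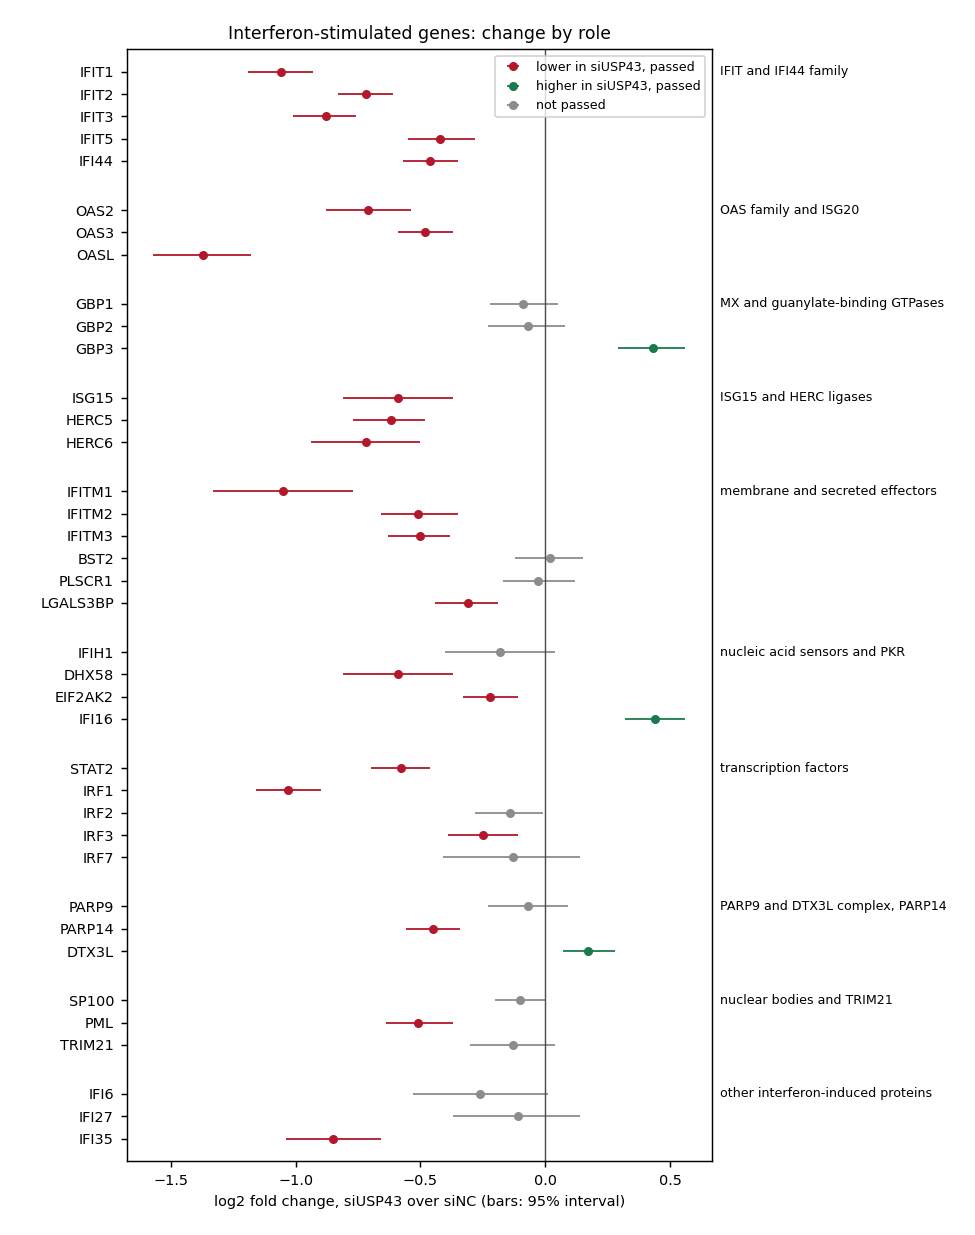
Log2 fold change of the 38 tested members, siUSP43 over siNC, grouped by role, with 95% intervals from the edgeR fit (not adjusted for the number of genes) and colour for the call at an adjusted p of 0.05. Every tested IFIT, OAS, ISG15, HERC and IFITM gene lies left of 0, from -1.37 for OASL to -0.42 for IFIT5, while GBP3, IFI16 and DTX3L lie right of it, at 0.43, 0.44 and 0.17.

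The 7 members below the FPKM filter were tested in a fit of all 33934 genes with at least 1 count. In it 12.0% of genes fell, a share that includes genes with very few counts, beside 28.1% in the main fit. Its p-values are not on the scale of the main fit. For IFIT1, on the same counts, the edgeR adjusted p was 8.8e-53 without the filter and 7.69e-08 in the main fit. IFI44L, OAS1, ISG20, MX2, IRF9 and XAF1 fell in the fit without the filter and MX1 did not pass (log2 fold change -0.21, edgeR adjusted p = 0.209). ISG20, an RNA exonuclease gene, had 111, 105 and 96 counts in siUSP43 and 205, 272 and 264 in siNC (log2 fold change -1.22, SE 0.13, edgeR adjusted p = 1.19e-18). IFI44L, OAS1 and IRF9 changed by -0.86, -0.58 and -0.50, and MX2, on 24 to 66 counts per library, by -1.15. XAF1, whose protein antagonises the caspase inhibitor XIAP, had 2 counts summed over siUSP43 and 32 over siNC, a ratio of 0.0633 when scaled to library totals (exact 95% interval 0.00735 to 0.248, covering counting error only).

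Ratios inside a library do not depend on its scaling and show how unequal the changes were between related genes. The 5 pairs were chosen after their values were seen. GBP3 was 3.90, 3.86 and 4.32 times as high as GBP1 in siUSP43 libraries and 2.77, 2.85 and 2.84 times in siNC libraries, on the FPKM scale. DTX3L over PARP14 was 2.16, 2.03 and 2.06 in siUSP43 and 1.32, 1.37 and 1.35 in siNC. The IRF1 to IRF2 ratio was 0.508, 0.528 and 0.452 in siUSP43 and 0.909, 0.885 and 0.964 in siNC. IFIT1 was below IFIT5 in each siUSP43 library and above it in each siNC library, with ratios of 0.686, 0.713 and 0.671 in siUSP43 and 1.08, 1.06 and 1.08 in siNC. OASL over OAS3 was 1.01, 1.04 and 0.826 in siUSP43 and 1.83, 1.65 and 1.83 in siNC. IFIT1 lies within the span of LIPA, IRF1 overlaps IRF1-AS1 and DTX3L overlaps PARP9. Reads of GBP genes may have been divided between them, so the limits given above hold for these ratios too. For each pair the groups did not overlap, and the exact two-sided permutation test gave 0.1, the smallest value this design allows. Since the pairs were picked by their values, neither the separation nor this p-value adds support.

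**Figure D3:**
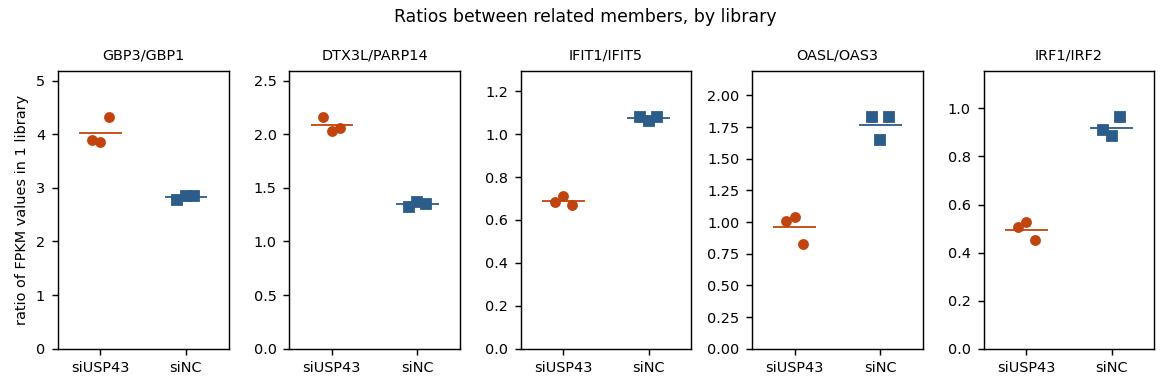
Ratio of the FPKM values of 5 pairs of related members, chosen after their values were seen, in each library. The 3 siUSP43 libraries are orange circles (left) and the 3 siNC libraries blue squares (right), with lines at the group means and axes that start at 0. GBP3/GBP1 and DTX3L/PARP14 are higher in siUSP43, and IFIT1/IFIT5, OASL/OAS3 and IRF1/IRF2 are lower in siUSP43, with no overlap in any panel.

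The promoter word was found among members of every call. Of members with a promoter in the table, the response element core was in 12 of 16 that fell, 2 of 3 that rose, 8 of 9 that did not pass and 3 of 6 below the filter. STAT2, IRF1, HERC6 and IFI35 fell with no match in the window. A pair of short words, GGATCCA and GATCCAA, which an earlier look at these data found more often in the 3′ untranslated regions of genes that fell, was also counted there (GENCODE release 29, at least 50 bases). They were in 2 of the 22 members that fell and had such a region, OAS3 and EIF2AK2 (9.1%), and in 0 of the 3 that rose and 0 of the 12 that did not pass. Over all 9783 tested genes with such a region they were in 9.1%, the same share as among the members that fell. By call they were in 14.4% of those that fell, 6.4% of those that rose and 7.2% of those that did not pass. The words were picked from these same data, so that difference is not a test of them.

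A second list of 76 genes of the interferon pathway, also chosen with earlier results known, was read alongside. Of its 51 genes past the filter, 25 fell, 9 rose and 17 did not pass, 49.0% and 17.6% for the first pair of counts, beside 28.1% and 28.0% of all tested genes, with a median log2 fold change of -0.15. The interferon genes of this list, with IFNA1 as the only interferon alpha gene, were near the limit of detection. The 9 ligand genes summed to 19 to 35 counts per siUSP43 library and 21 to 34 per siNC library, mostly from IFNE. IFNE overlaps MIR31HG on the same strand, so reads of the 2 genes may not have been told apart. IFNG, IFNK, IFNL2 and IFNL3 had 0 counts in all 6 libraries.

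Of 8 tested receptor, kinase and STAT genes, 3 fell, 1 rose and 4 did not pass. JAK1 and TYK2, the kinases of the interferon alpha and beta receptor, fell, at 13.7 ± 0.536 and 4.59 ± 0.211 FPKM in siUSP43 against 17.2 ± 0.30 and 6.08 ± 0.114 in siNC (SD, n = 3 each), log2 fold changes of -0.34 and -0.42 (edgeR adjusted p = 4.88e-05 and 8.01e-05). IFNGR2, a subunit of the interferon gamma receptor, fell by 0.26, IFNGR1 was at 0.01 and did not pass, and STAT3 rose by 0.24. IFNAR1 stood at 0.11 and missed the threshold (edgeR adjusted p = 0.078). IFNAR2 and IL10RB, a receptor chain used by interferon lambda, were below the filter. They fell by 0.65 and 0.55 in the fit without it (edgeR adjusted p = 6.34e-08 and 6.75e-04), whose p-values are not on the scale of the main fit.

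Of 7 negative regulators, 3 fell, 1 rose and 3 did not pass. SOCS1, which overlaps RMI2 on the other strand and is itself an interferon-induced inhibitor of JAK kinases, rested on 22 to 31 counts per siUSP43 library and 80 to 92 per siNC library and had 0.58, 0.49 and 0.48 FPKM in siUSP43 and 1.57, 1.76 and 1.57 in siNC, a log2 fold change of -1.67 (SE 0.18, edgeR adjusted p = 1.26e-05). SOCS1 passed the filter only through the siNC libraries, as its siUSP43 mean was under 1 FPKM. SOCS3 fell to 10.9 ± 0.94 FPKM in siUSP43, against 17.8 ± 0.728 in siNC (SD, n = 3 each, -0.72, SE 0.07, edgeR adjusted p = 6.61e-06), and the phosphatase gene PTPN6 changed by -0.29. PTPN11, another phosphatase gene, rose by 0.72, though it overlaps the ribosomal protein gene RPL6.

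Of 8 tested genes of nucleic acid sensing, 5 fell, 1 rose and 2 did not pass. STING1, the adaptor of DNA sensing, had a log2 fold change of -0.52, TRIM25 -0.35, TICAM1 -0.27 and MAVS -0.24, while TRAF3, an adaptor that also restrains the alternative NF-kB pathway, rose by 0.65 (SE 0.06, edgeR adjusted p = 2.24e-06). Of 28 tested further effectors, 14 fell, 6 rose and 8 did not pass. Beside UBA7, those that fell most were APOL1 (-0.73), ZC3HAV1, the gene of the zinc finger antiviral protein (-0.58), and SAMD9 (-0.57). TRIM5, a capsid-binding restriction factor gene, rose by 0.66 (SE 0.07, edgeR adjusted p = 7.56e-06), and overlaps TRIM22 on the other strand, which fell by 0.42.

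**Figure D4:**
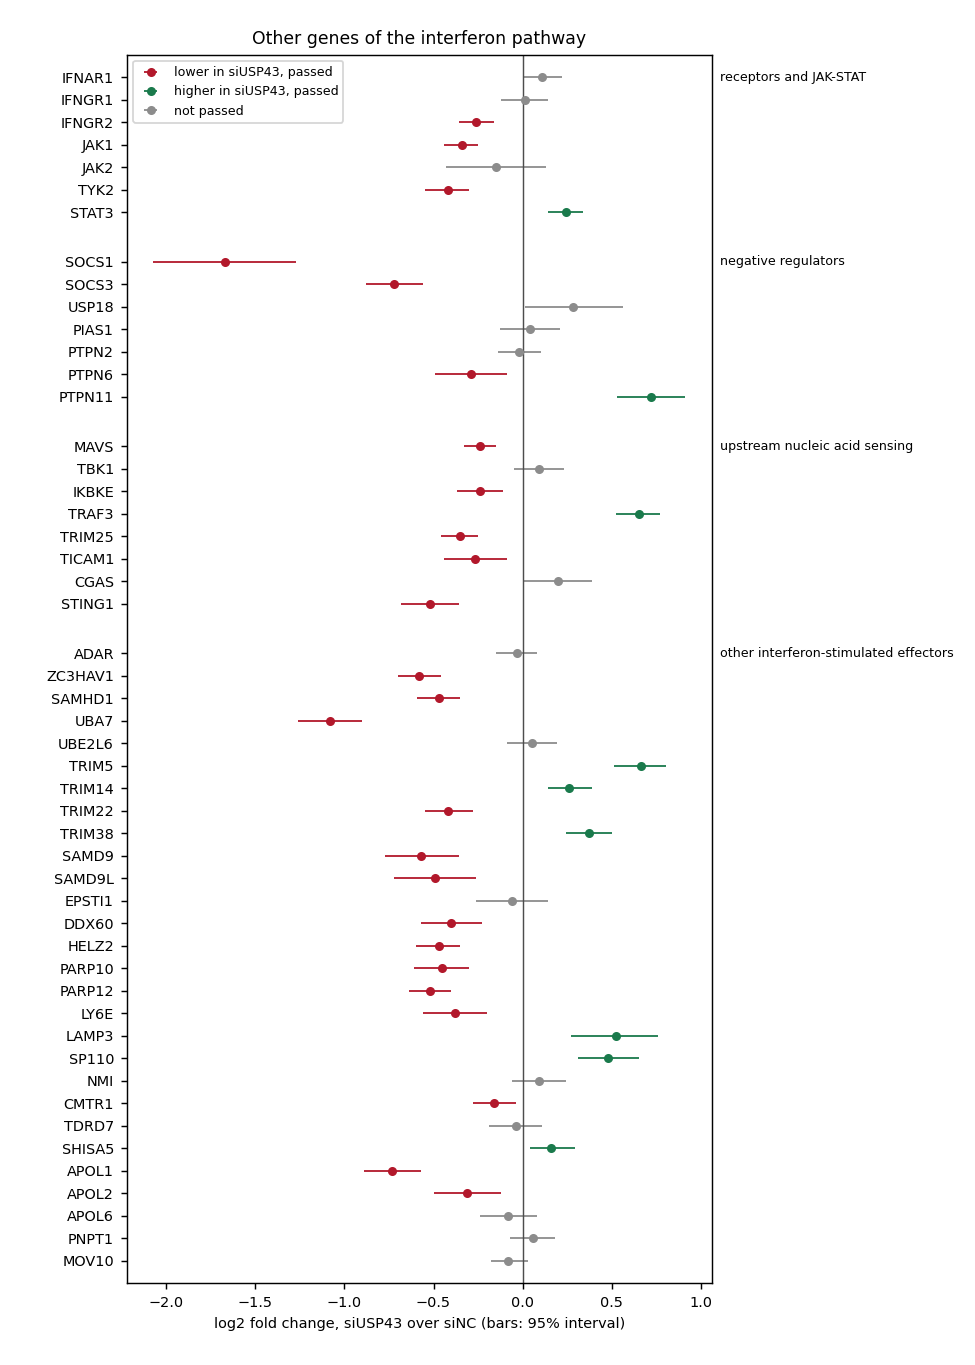
Log2 fold change of 50 of the 51 tested genes of the second list, siUSP43 over siNC, with 95% intervals from the edgeR fit (not adjusted for the number of genes) and colour for the call at an adjusted p of 0.05. SOCS1 at -1.67, which passed the filter only through its siNC level, and UBA7 at -1.08 lie furthest left, and PTPN11, TRIM5 and TRAF3 at 0.72, 0.66 and 0.65 furthest right.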

How the data were processed

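RNA of 6 T24 samples was sequenced, and the authors deposited gene counts and FPKM for each, per the file headers. The submitters' processing notes name cutadapt 2.6, HISAT2 2.2.1 and build GRCh38. Which counter, annotation and strand setting were used, and what became of reads that map to several places, is not given in the sources used here. Counts were tested with edgeR 4.0.16 in R 4.3.3 (quasi-likelihood fit, TMM scaling with library sizes summed over every gene, group as the only term, two-sided). Genes entered at a mean of 1 FPKM or more, USP43 in any case, and Benjamini-Hochberg adjustment ran over all tested genes. SEs are the log2 fold change over the root of the F statistic. Fold changes are siUSP43 over siNC. The test was run on simulated counts with known changes.

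The fixed plan named the edgeR fit for counts, so it was kept. The members and the second list were chosen with earlier results of these data known. Values in every library are given for members that passed with an absolute log2 fold change of at least 0.5 and for the IRF and STAT members; other members are given by name. Of the further lists, the rule named the receptors, JAK1, TYK2 and USP18, and up to 5 genes per list that passed, by size of change. Library values of GBP3, IFI16, BST2, OAS1 and ISG20, and all values of UBE2L6, TRIM22, the interferon ligands and the pathway genes of the closing observations, fall outside that rule and were chosen after they were seen. Groups and replicate numbers came from sample titles. Alternatives were DESeq2 1.42.0, limma 3.58.1 on log2 FPKM, other scalings, filters, a robust fit, a replicate block and each library left out. Reads carry no molecular identifiers. The exact interval of the XAF1 ratio covers counting error only, while the edgeR intervals also take in spread between libraries. 1 gene of the second list is counted but its values are not reported here.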

Additional observations from a re-analysis of the deposited data

How the results depend on the processing

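The calls of all 26 members that passed held in each of the 16 alternatives in which they could be tested, and the members that fell numbered 18 (mean FPKM of at least 5, fewer genes tested) to 29 (no filter), with 3 rising in each. The median log2 fold change of the members was -0.47 without a filter, -0.46 with filterByExpr, an edgeR filter on counts added after the data were seen, and -0.37 with limma on log2(FPKM + 1); without siUSP43 or siNC replicates in turn it ran from -0.45 to -0.39. With a mean FPKM of at least 5, which tests fewer genes, 3781 genes passed in place of 6409 and 5 other pathway genes rose in place of 9. BST2 and PLSCR1, which did not pass, changed sign: with each library left out in turn, BST2 ran from -0.02 to 0.09 (-0.01 and -0.02 without siUSP43 replicates 1 and 2) and PLSCR1 from -0.10 to 0.02 (0.02 and 0.00 without siNC replicates 1 and 2). IFI27, IFI6 and IRF2 passed without siNC replicate 3, siUSP43 replicate 2 and siUSP43 replicate 3, at -0.25, -0.38 and -0.18, and SP100 passed at a mean FPKM of at least 5, at -0.10. Sample titles link siUSP43 and siNC libraries only by a number. Deviations from the group means correlated at -0.013, -0.126 and -0.261 for same-numbered libraries, and at -0.164 to 0.270 for differently numbered ones. Deviations within a group of 3 libraries depend on one another, so these values cannot settle whether libraries were paired. A replicate block left 5616 genes, with 23 members that fell and 3 that rose. No pair of libraries of 1 group was as alike as counting noise alone gives, with a chi-square per degree of freedom of 2.28 to 15.0. Depth limits MX2, XAF1 and the interferon ligands.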

Other observations

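Several pathway genes outside the 45 that lay below the FPKM filter also fell in the fit of all 33934 genes with at least 1 count. In that fit 12.0% of genes fell and 11.3% rose, shares that include genes with very few counts. Its p-values are not on the scale of the main fit. RIGI, which encodes a sensor of viral RNA ends, was at 0.21, 0.12 and 0.23 FPKM in siUSP43 and 0.40, 0.34 and 0.27 in siNC, a log2 fold change of -0.85 (SE 0.18, edgeR adjusted p = 3.32e-05). CMPK2, a mitochondrial nucleotide kinase gene, had a log2 fold change of -1.47 (SE 0.37, edgeR adjusted p = 4.24e-04) on 9 to 31 counts per library, and BATF2, a transcription factor gene, one of -1.11 (SE 0.29, edgeR adjusted p = 9.17e-04). TLR3, an endosomal sensor of double-stranded RNA, was at -0.36 (edgeR adjusted p = 0.0129). RSAD2, the gene of viperin, which overlaps CMPK2 on the other strand, did not pass, at -1.05 (SE 0.51, edgeR adjusted p = 0.135). TREX1, a DNA exonuclease gene, is listed at 0 counts in all 6 libraries, and it overlaps ATRIP on the same strand, so whether its RNA was absent or its reads were not assigned to it cannot be told apart.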
